A study of Mus musculus with 20 samples.

Results

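Adhesion molecules and surface markers of neutrophils, encoded by 8 genes, were followed through bulk RNA-seq of mouse bone marrow neutrophils. The genes were taken by name: Selplg, Itgb2, Itgal, Itgam, Itga4, Cd44, Ly6g and Cd177. The count files list 24421 genes. Of the 8 genes, 7 have a row there, and these 7 all passed the filter on low counts, which kept 14030 genes. The count files used here hold no row under the symbol Ly6g, so no value is given for it.

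The 20 libraries came from 4 groups of 5 female mice, with 1 library per mouse. The groups were untreated WT, untreated Bmal1 Mye-/-, WT given imiquimod (IMQ) and Bmal1 Mye-/- given IMQ. WT mice were C57BL/6J animals bought from Jackson. Bmal1 Mye-/- mice carried floxed Bmal1 on both alleles together with LysMCre, a Cre placed in the lysozyme 2 locus and thus active in the myeloid lineage at large, and were bred at the study's own facility from the lines B6.129S4(Cg)-Bmal1tm1Weit/J and B6.129P2-Lyz2tm1(cre)Ifo/J. No group carried Cre without the floxed gene, so that the loss of Bmal1, the Cre insertion and the difference in colony cannot be told apart. IMQ is an agonist of the endosomal receptors TLR7 and TLR8. It was put on the ears as a 5% cream 3 times per week for 6 weeks, in the evening, beginning at 8 to 10 weeks of age. Femurs and tibiae were taken in the morning, between ZT 1 and ZT 4 (hours after lights on), and neutrophils were enriched by magnetic depletion of other cells. Neutrophils of no other time of day were among these libraries.

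Neutrophils leave the blood in steps. P-selectin glycoprotein ligand 1, the product of Selplg, binds selectins on activated endothelium and lets the cell roll. Integrins, which are pairs of an alpha and a beta chain, then hold the cell in place: CD18 (Itgb2) pairs with CD11a (Itgal) to make LFA-1 and with CD11b (Itgam) to make Mac-1, whereas the alpha 4 chain (Itga4) pairs with beta 1 or beta 7 chains and binds VCAM-1. CD44 binds hyaluronan and, on neutrophils, also E-selectin. Ly6G and CD177 sit on the cell through a lipid anchor and serve as surface markers of the lineage, and CD177 binds PECAM-1.

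On mm10 (GRCm38), the positions of the genes were taken from RefSeq. Selplg lies on chr5 from 113817798 to 113832528, Itgb2 on chr10 from 77530329 to 77565708, Itga4 on chr2 from 79255426 to 79333114, and Cd44 on the same chromosome from 102811141 to 102901669. Ly6g lies on chr15 from 75155261 to 75159128. The other 3 share chromosome 7 with Bmal1 itself (gene symbol Arntl): Cd177 runs from 24743983 to 24760334, Itgal from 127296139 to 127335137, and Itgam from 128062640 to 128118491. Itga4 overlaps Cerkl on the opposite strand, and because the strand setting of the counting is not given in the sources used here, reads of the pair could not be separated. Itgam overlaps the gene model Gm49368 on its own strand, and Cd44 the small nuclear RNA Gm23731, so reads in those stretches are uncertain too.

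RefSeq promoter sequences, from 250 bases before to 50 bases after the start of transcription, were at hand for 5 of the 8 genes. Those of Itgam, Itga4 and Cd177 are shown as those of an integrin alpha chain with a high level, of the alpha chain with the lowest level and of the surface marker with counts. Capitals mark matches, on either strand, to the core GAGGAA of the factor PU.1, to the C/EBP pattern TTNNGNAA and to the TATA box TATAAA.
Itgam, chr7:128062390-128062689, plus strand: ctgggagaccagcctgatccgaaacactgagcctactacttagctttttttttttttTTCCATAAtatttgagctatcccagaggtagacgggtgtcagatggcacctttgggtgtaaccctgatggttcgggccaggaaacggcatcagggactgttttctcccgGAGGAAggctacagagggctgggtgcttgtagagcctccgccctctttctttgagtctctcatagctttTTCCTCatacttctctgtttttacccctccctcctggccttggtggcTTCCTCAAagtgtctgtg
Itga4, chr2:79255176-79255475, plus strand: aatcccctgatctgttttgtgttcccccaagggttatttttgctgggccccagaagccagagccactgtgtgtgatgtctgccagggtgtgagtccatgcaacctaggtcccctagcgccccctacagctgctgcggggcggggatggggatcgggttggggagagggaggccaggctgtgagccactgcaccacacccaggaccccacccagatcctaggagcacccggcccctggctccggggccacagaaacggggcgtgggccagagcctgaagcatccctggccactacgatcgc
Cd177, chr7:24760262-24760561, minus strand: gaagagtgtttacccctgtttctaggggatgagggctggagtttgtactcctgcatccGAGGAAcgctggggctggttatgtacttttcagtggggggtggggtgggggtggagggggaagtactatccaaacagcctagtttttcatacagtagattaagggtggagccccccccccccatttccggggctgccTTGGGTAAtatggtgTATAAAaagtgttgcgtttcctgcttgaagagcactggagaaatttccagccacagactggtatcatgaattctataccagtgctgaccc

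The Itgam promoter held 3 PU.1 core matches and 2 C/EBP matches, of which 1 pair shared bases. That of Cd177 held 1 match to each of the 3 patterns, and in that of Itga4 none of these letters occurred. The core of PU.1 was present in 28.3% of the 32851 RefSeq promoters of this length, the C/EBP pattern in 40.7% and the TATA box in 13.6%. The clock E-box CACGTG, to which BMAL1 binds, occurs in 7.15% of all promoters, and the interferon-stimulated response element in 3.44%. Neither was found in the promoters of the 5 genes, including both listed for Ly6g (from 75155011 and from 75155079). A match is a description of the letters and not a binding site.

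Reads on genes numbered 30782166 to 92613500 per library. Arntl was covered thinly and its counts include exons outside the floxed part, so that it checks the labels weakly: it stood at 0.90 to 1.71 CPM (counts per 1000000 reads on genes, scaled by TMM) in untreated WT, at 0.47 to 1.10 in untreated Bmal1 Mye-/-, at 0.56 to 1.87 in WT with IMQ and at 0.34 to 1.52 in Bmal1 Mye-/- with IMQ. These ranges overlap. Lyz2, the locus into which Cre was inserted, separated the genotypes without overlap, at 2465 to 12033 CPM in the 10 WT libraries and at 58.8 to 177 CPM in the 10 Bmal1 Mye-/- libraries. Neutrophil genes were found in all 20 libraries, but their levels varied widely. S100a8 was at 12184 to 30461 CPM, S100a9 at 16499 to 38322 CPM and Retnlg at 1298 to 8690 CPM. Mmp8 was at 846 to 5944 CPM, Csf3r at 409 to 3166 CPM and Cxcr2 at 320 to 1995 CPM. Of the other lineages, the summed markers of the B lineage reached at most 24.0 CPM, those of T and NK cells 24.5 CPM and those of endothelium 18.0 CPM. Monocyte markers summed to 638 to 2244 CPM, erythroid markers to 15.2 to 534 CPM with the highest value in WT IMQ replicate 3, eosinophil markers to 17.5 to 188 CPM and platelet and megakaryocyte markers to 11.7 to 102 CPM. Of the 6 erythroid genes, 2 had 0 counts in all 20 libraries, so that the erythroid sum lacks them. Granulocyte progenitor markers summed to 121 to 1606 CPM, highest in Bmal1 Mye-/- IMQ replicate 1, and basophil and mast cell markers to 2.39 to 18.4 CPM. With IMQ in WT 1 of 4 erythroid genes was called higher (2.34% of all genes), and 1 of 6 platelet and 1 of 6 eosinophil genes lower (1.60%). With IMQ in Bmal1 Mye-/-, 2 of 5 B lineage, 1 of 5 T and NK and 1 of 6 eosinophil genes were called lower (9.04%). There 1 of 5 basophil and mast cell genes was called higher (14.4%). The part of these cells in the results was not tested.

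A pair of IMQ libraries stood apart, WT replicate 3 and Bmal1 Mye-/- replicate 1. The 6 genes of a late neutrophil list (Mmp8, Retnlg, Cxcr2, Csf3r, Ccl6 and Il1b) summed to 4790 CPM in the former and 3213 CPM in the latter, against 14727 to 19740 CPM in the other 4 WT IMQ libraries, 6785 to 15529 CPM in the other 4 Bmal1 Mye-/- IMQ libraries and 16027 to 21187 CPM in the 10 untreated ones. The 6 genes of a proliferation list (Mki67, Top2a, Birc5, Ccnb1, Cdk1 and Tyms) summed to 1750 and 1799 CPM in the pair, against 248 to 508 CPM in the untreated libraries. On this list the pair did not stand apart from the Bmal1 Mye-/- IMQ libraries, of which replicate 3 was at 1306 CPM and replicate 5 at 1978 CPM. Results below are therefore also given without these 2 libraries, an alternative chosen after the values were seen.

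Of the 7 genes with counts, Cd177 had the highest level per length. It averaged 1643 RPKM (reads per kilobase of merged exons and per 1000000 reads on genes) over the 20 libraries and ranked 15th of all tested genes by CPM. Itgb2 followed at 931 RPKM, Itgam at 630, Selplg at 271, Itgal at 128, Cd44 at 125 and Itga4 at 7.47. This order was the same in 20 of 20 libraries for each pair of neighbours except Itgal and Cd44. Itgal exceeded Cd44 in 11 of 20 libraries, with a ratio of their RPKM between 0.908 and 1.27, so these 2 did not differ beyond their spread.

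**Figure D1:**
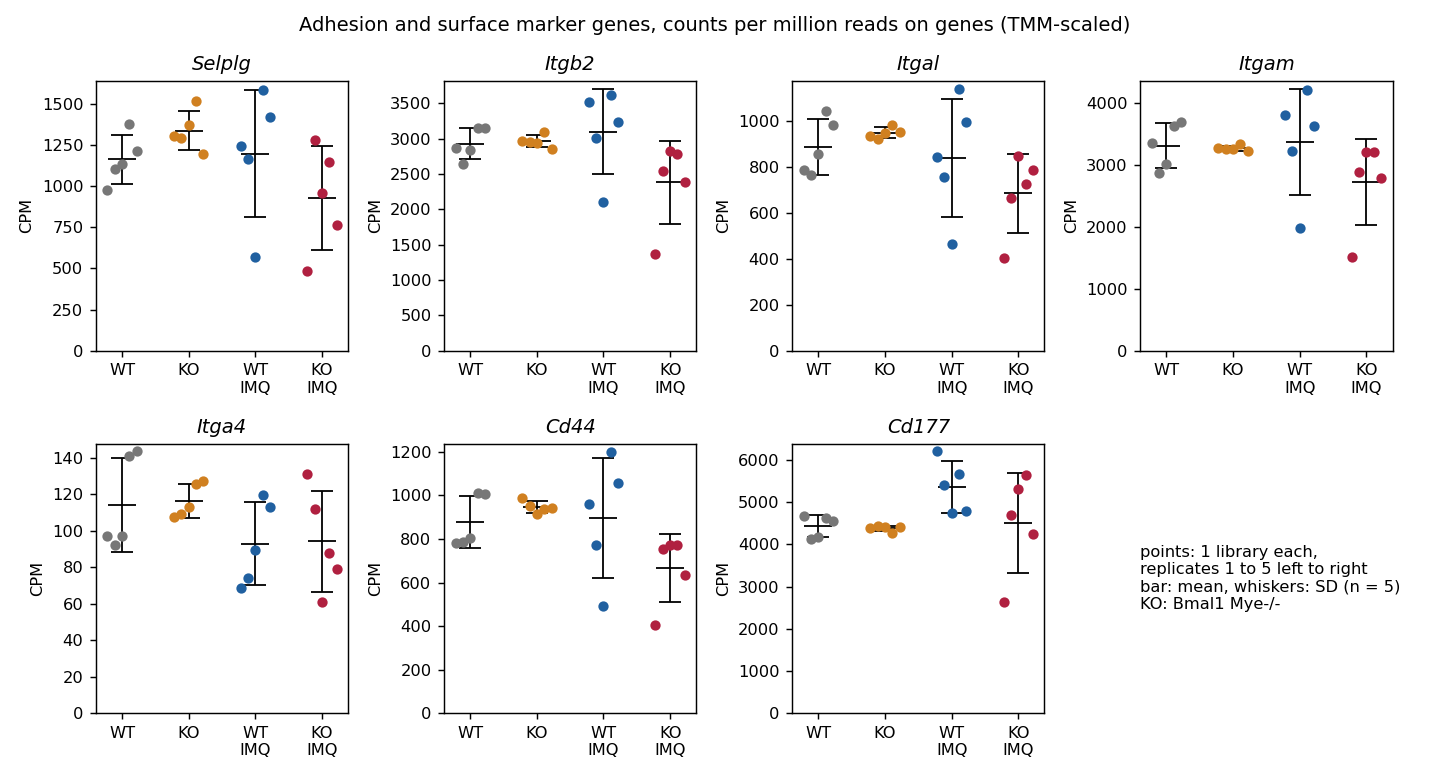
CPM (counts per 1000000 reads on genes, TMM-scaled) of the 7 genes with counts in each of the 20 libraries, with 1 point per library, a bar for the mean and whiskers for the SD (n = 5); KO stands for Bmal1 Mye-/-. The lowest Bmal1 Mye-/- IMQ point is replicate 1 for every gene but Itga4, and the untreated Bmal1 Mye-/- points lie closest together.

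At the adjusted threshold none of the 7 genes differed in any of the 5 comparisons (edgeR, quasi-likelihood, p-values adjusted by Benjamini and Hochberg over the 14030 genes). Differences at an unadjusted p under 0.05 were found for Selplg, Itgal and Cd44, all lower with IMQ in Bmal1 Mye-/- mice, and for Itgb2 and Cd44, both lower in Bmal1 Mye-/- than in WT mice under IMQ. Cd177 alone was fitted higher with IMQ in both genotypes, and Itgal and Itga4 were fitted lower in both. Each gene is described in turn, in the order of the steps of adhesion. In bulk RNA, fewer cells that carry a transcript and less of it per cell cannot be told apart.

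Selplg, the selectin ligand, was measured at 979, 1107, 1138, 1381 and 1217 CPM in untreated WT replicates 1 to 5 and at 1307, 1294, 1375, 1516 and 1197 CPM in untreated Bmal1 Mye-/-. With IMQ it stood at 1242, 1168, 570, 1585 and 1419 CPM in WT and at 482, 1282, 958, 1147 and 762 CPM in Bmal1 Mye-/-. All 4 groups overlapped, and the lowest values were those of the pair of libraries named above. In Bmal1 Mye-/- mice the fitted log2 fold change with IMQ was -0.53 (SE 0.24, 95% interval -1.03 to -0.03, adjusted p = 0.106). In WT mice it was 0.04 (SE 0.24, interval -0.46 to 0.54, adjusted p = 0.944). The difference between these responses was -0.57 with an interval of -1.27 to 0.13, which includes 0 (adjusted p = 0.640). Without the 2 low libraries the change in Bmal1 Mye-/- mice was -0.35 (adjusted p = 0.0555), and without WT IMQ replicate 3 alone it passed the threshold at -0.52 (adjusted p = 0.0462).

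Itgb2, the beta chain shared by LFA-1 and Mac-1, stood at 2865, 2638, 2834, 3149 and 3144 CPM in untreated WT and at 2962, 2954, 2940, 3093 and 2859 CPM in untreated Bmal1 Mye-/-. Under IMQ the WT libraries gave 3517, 3013, 2109, 3614 and 3239 CPM and the Bmal1 Mye-/- libraries 1373, 2547, 2827, 2776 and 2382 CPM. The IMQ and untreated libraries of Bmal1 Mye-/- mice did not overlap, whereas those of WT mice did. With scaling by library size alone those of Bmal1 Mye-/- overlapped too, with IMQ replicate 3 at 2862 CPM and untreated replicate 3 at 2837 CPM. The fitted log2 fold change with IMQ was -0.31 in Bmal1 Mye-/- (SE 0.17, interval -0.67 to 0.04, adjusted p = 0.171) and 0.08 in WT (SE 0.17, interval -0.27 to 0.44). The former was -0.16 without Bmal1 Mye-/- IMQ replicate 1 and -0.14 without the 2 low libraries. Under IMQ, Bmal1 Mye-/- was fitted lower than WT by a log2 fold change of -0.38 (SE 0.17, interval -0.73 to -0.03, adjusted p = 0.243). This last difference passed the threshold without the 2 low libraries, at -0.32 (SE 0.08, adjusted p = 0.0283), and also without WT IMQ replicate 3 alone, at -0.48 (adjusted p = 0.0392). The 2 low libraries were the lowest of their groups here, at 2109 CPM in WT and 1373 CPM in Bmal1 Mye-/-. Leaving out only the Bmal1 Mye-/- one would bring the group means closer, and the fitted value of that setting is not given here.

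Itgal, the alpha chain of LFA-1, was at 785, 762, 857, 1042 and 981 CPM in untreated WT and at 934, 921, 947, 983 and 953 CPM in untreated Bmal1 Mye-/-. IMQ libraries of WT held 844, 756, 463, 1136 and 993 CPM, and those of Bmal1 Mye-/- 403, 665, 846, 724 and 786 CPM. Each IMQ value of Bmal1 Mye-/- lay below each untreated one of that genotype. The log2 fold change was fitted at -0.47 there (SE 0.20, interval -0.89 to -0.05, adjusted p = 0.0904) and -0.08 in WT (SE 0.20, interval -0.50 to 0.34). Without WT IMQ replicate 3, a library of neither group compared, the former passed the threshold at -0.46 (adjusted p = 0.0413). Without both low libraries it was -0.30 (adjusted p = 0.0614).

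Itgam, the alpha chain of Mac-1 and, as CD11b, the usual myeloid marker, was at 3348, 2873, 3012, 3628 and 3686 CPM in untreated WT and at 3268, 3254, 3249, 3342 and 3229 CPM in untreated Bmal1 Mye-/-. It was at 3802, 3230, 1976, 4203 and 3625 CPM in WT with IMQ and at 1521, 2878, 3208, 3211 and 2791 CPM in Bmal1 Mye-/- with IMQ. Replicate 1 of the last group lay far below the other 4, and the highest of that group lay just under the lowest untreated library of its genotype. With scaling by library size alone these groups overlapped, with IMQ replicate 3 at 3248 CPM and untreated replicate 3 at 3136 CPM. The fitted log2 fold change with IMQ was -0.26 in Bmal1 Mye-/- (SE 0.19, interval -0.67 to 0.14, adjusted p = 0.313) and 0.02 in WT (SE 0.19, interval -0.38 to 0.43). These were -0.09 and 0.16 without the 2 low libraries, and leaving out replicate 1 of Bmal1 Mye-/- alone brought the former to -0.10.

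Itga4, the alpha 4 integrin chain, had the lowest level of the 7. In untreated WT it was at 97.0, 92.0, 97.0, 141 and 144 CPM, and in untreated Bmal1 Mye-/- at 107, 109, 113, 126 and 127 CPM. With IMQ it was at 68.5, 74.1, 89.5, 119 and 113 CPM in WT and at 131, 112, 60.9, 87.7 and 78.9 CPM in Bmal1 Mye-/-. Here the order of the libraries differed: Bmal1 Mye-/- replicate 1, lowest of the 20 for the other 6 genes, was the highest of its group for Itga4, and replicate 3 was the lowest. With IMQ its log2 fold changes were fitted at -0.30 in WT (SE 0.20, interval -0.71 to 0.11, adjusted p = 0.393) and -0.31 in Bmal1 Mye-/- (SE 0.20, interval -0.72 to 0.10, adjusted p = 0.245). They were -0.29 and -0.44 without the 2 low libraries, and the value in Bmal1 Mye-/- was -0.17 without IMQ replicate 3 of that genotype and -0.14 with scaling by library size alone.

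Cd44, the hyaluronan receptor, was at 782, 788, 806, 1010 and 1008 CPM in untreated WT and at 988, 951, 914, 940 and 941 CPM in untreated Bmal1 Mye-/-. With IMQ it was at 959, 772, 492, 1198 and 1058 CPM in WT and at 406, 753, 771, 771 and 636 CPM in Bmal1 Mye-/-. All 5 IMQ libraries of Bmal1 Mye-/- lay below the 5 untreated ones of that genotype. They also lay below 4 of the 5 WT IMQ libraries, but only just, at 771 against 772 CPM. With scaling by library size alone this last order did not hold. There WT IMQ replicate 2 was at 730 CPM and Bmal1 Mye-/- IMQ replicates 2 and 3 were at 780 and 781 CPM. The fitted log2 fold change with IMQ was -0.50 in Bmal1 Mye-/- (SE 0.20, interval -0.92 to -0.09, adjusted p = 0.0668), which was the smallest adjusted p of the 7 genes, and 0.03 in WT (SE 0.20, interval -0.38 to 0.44). The difference between these responses was -0.53 (interval -1.11 to 0.05, adjusted p = 0.640). The change in Bmal1 Mye-/- passed the threshold with DESeq2 (-0.53, adjusted p = 0.0483), with scaling by library size alone (-0.42, adjusted p = 0.0303), with limma (-0.42, adjusted p = 0.0297), without WT IMQ replicate 3 (-0.49, adjusted p = 0.0249) and without the 2 low libraries (-0.35, SE 0.11, adjusted p = 0.0291). Without Bmal1 Mye-/- IMQ replicate 1 alone it was -0.36 (adjusted p = 0.174). Of all genes, 31.1% passed in this comparison with DESeq2, 22.7% with library size alone and 20.7% with limma.

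Under IMQ, Cd44 was fitted lower in Bmal1 Mye-/- than in WT by a log2 fold change of -0.42 (SE 0.20, interval -0.84 to -0.01, adjusted p = 0.246). This was -0.41 without the 2 low libraries (SE 0.12, adjusted p = 0.0386), and without WT IMQ replicate 3 alone it was -0.57 (adjusted p = 0.0272). The size of the Cd44 difference hardly moved when both libraries were left out, and its SE fell. The 2 were the lowest libraries of the groups compared, at 492 CPM in WT and 406 CPM in Bmal1 Mye-/-. Leaving out both therefore raised both group means and narrowed the spread. As the 2 were chosen after the values were seen, this does not test how firm the difference is. Leaving out only the Bmal1 Mye-/- library would bring the means closer, and the fitted value of that setting is not given here.

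Cd177, the neutrophil antigen that binds PECAM-1, was at 4664, 4120, 4175, 4624 and 4559 CPM in untreated WT and at 4385, 4428, 4399, 4258 and 4408 CPM in untreated Bmal1 Mye-/-. With IMQ it was at 6199, 5405, 4737, 5664 and 4794 CPM in WT and at 2627, 4696, 5311, 5641 and 4240 CPM in Bmal1 Mye-/-. All 5 WT IMQ libraries lay above the 5 untreated WT libraries, and WT IMQ replicate 3, low for most other genes, was among them. With scaling by library size alone these groups overlapped, with WT IMQ replicate 5 at 4471 CPM and untreated WT replicate 1 at 4652 CPM. The fitted log2 fold change with IMQ was 0.28 in WT (SE 0.16, interval -0.05 to 0.61, adjusted p = 0.321) and 0.04 in Bmal1 Mye-/- (SE 0.16, interval -0.29 to 0.37, adjusted p = 0.863). Without the 2 low libraries the change in WT passed the threshold at 0.31 (SE 0.09, adjusted p = 0.0442), and that in Bmal1 Mye-/- was 0.21 (SE 0.09, adjusted p = 0.0786). The difference between genotypes in this response was -0.23 (interval -0.70 to 0.23) with all libraries and -0.10 without the 2.

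**Figure D2:**
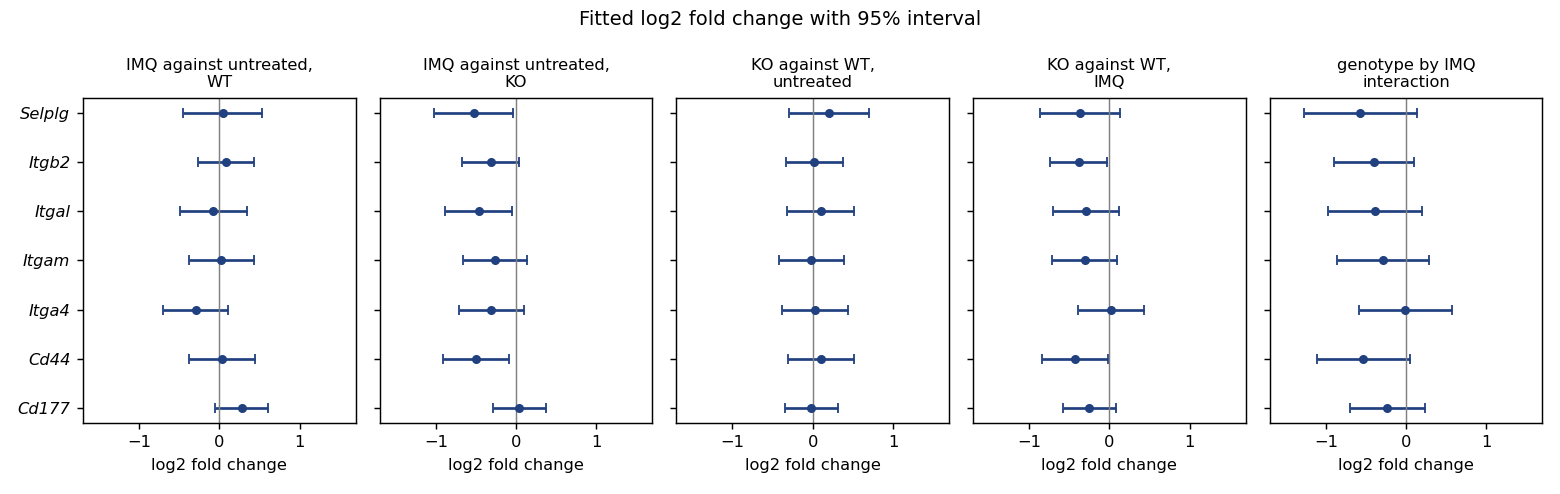
Fitted log2 fold changes of the 7 genes (points) with their 95% intervals (bars) in the 5 comparisons, where KO stands for Bmal1 Mye-/-. With IMQ in Bmal1 Mye-/- the intervals of Selplg, Itgal and Cd44 lie below 0, from -1.03 to -0.03 for Selplg, whereas in untreated mice all 7 intervals for genotype include 0.

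Counted together, 0 of the 7 genes passed with IMQ in WT, where 3.95% of the 14030 genes did, 0 of 7 had an unadjusted p under 0.05, against 22.3% of all genes, and 1 (Cd177) did not overlap between the groups, against 6.43%. With IMQ in Bmal1 Mye-/-, 0 of 7 passed against 23.5% of all genes, 3 of 7 had an unadjusted p under 0.05 against 39.3%, and 4 (Itgb2, Itgal, Itgam and Cd44) did not overlap between the groups against 20.1%. Some of these separations depended on the TMM scaling. With library size alone, Itgb2 and Itgam in Bmal1 Mye-/- and Cd177 in WT overlapped, whereas Itgal and Cd44 in Bmal1 Mye-/- did not. The share over all genes was not counted under that scaling. The median log2 fold change of the 7 was 0.03 in WT, equal to that of all genes, and -0.31 in Bmal1 Mye-/-, where that of all genes was 0.02. Of the 7, 6 were fitted lower in Bmal1 Mye-/-, and 6 or 7 were so under each of the 29 alternative settings. Scaling by library size alone moved the median of all genes there to 0.16 and that of the 7 to -0.23. The median of the 7 minus that of all genes lay between -0.42 and -0.30 in this comparison under all 29.

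Between genotypes, 0 of the 7 genes passed in untreated mice, where 0.207% of all genes did, 0 of 7 had an unadjusted p under 0.05, against 2.19%, and 0 of 7 did not overlap between the groups, against 1.52%. The fitted log2 fold changes of Bmal1 Mye-/- against WT lay between -0.02 (Itgam, interval -0.42 to 0.38) and 0.20 (Selplg, interval -0.30 to 0.70), with a median of 0.03. Each of the 7 intervals included 0, and a difference within a gene's own interval was not excluded. The spread behind them was estimated over all 4 groups. In an edgeR fit of only the 2 untreated groups, 0 of 7 passed, against 0.442% of the 13339 genes tested there. In that fit 1 of 7 had an unadjusted p under 0.05, a share not given here for all genes. Under IMQ, 0 of 7 passed against 0.292% of all genes, and 2 of 7 (Itgb2 and Cd44) had an unadjusted p under 0.05 against 19.9%, while 0 of 7 did not overlap between the groups against 1.07%. Of the 7, 6 were fitted lower in Bmal1 Mye-/- and Itga4 was at 0.02 (interval -0.39 to 0.43). Their median was -0.31 and that of all genes 0.03. Without Bmal1 Mye-/- IMQ replicate 1 the median of the 7 was -0.15.

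The calls in this last comparison changed most with WT IMQ replicate 3. Without it the calls over all genes rose from 41 to 3129, or 21.9% of those tested, and 2 of the 7 genes (Itgb2 and Cd44) were among them. Without both low libraries there were 1259 calls, or 8.89% of the genes, and the same 2 genes among the 7. In no setting did a member pass for the interaction, that is, for the difference between genotypes in the response to IMQ: 0 of 7 genes and 0% of all genes were called, the 7 fitted values were all below 0 with a median of -0.39, and 5.14% of all genes but none of the 7 had an unadjusted p under 0.05. This median was -0.22 when WT IMQ replicate 4 was left out and -0.23 when replicate 1 of Bmal1 Mye-/- with IMQ was. Without WT IMQ replicate 3, and also without both low libraries, 4 of the 7 had an unadjusted p under 0.05 for the interaction. The share over all genes in these 2 settings is not given here, so the 4 cannot be set against it.

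Late neutrophil, proliferation and monocyte markers were looked at beside these values, by group and not library by library. With IMQ in Bmal1 Mye-/- mice, 3 of the 6 late neutrophil genes were lower at the adjusted threshold, against 9.04% of all genes. There 6 of the 6 proliferation genes and 3 of 6 monocyte genes were higher, against 14.4% of all genes. The summed late neutrophil list ranged from 3213 to 15529 CPM in Bmal1 Mye-/- with IMQ and from 16027 to 21025 CPM in untreated Bmal1 Mye-/-, the proliferation list from 843 to 1978 CPM and from 248 to 457 CPM, and the monocyte list from 638 to 2244 CPM and from 760 to 963 CPM. In WT mice no gene of these 3 lists passed, against 3.95% of all genes. Between genotypes under IMQ, 2 of 6 eosinophil genes were higher in Bmal1 Mye-/-, against 0.185% of all genes. The list summed to 37.2 to 188 CPM there and to 17.5 to 34.7 CPM in WT. The part of these markers in the values of the adhesion genes was not tested.

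**Figure D3:**
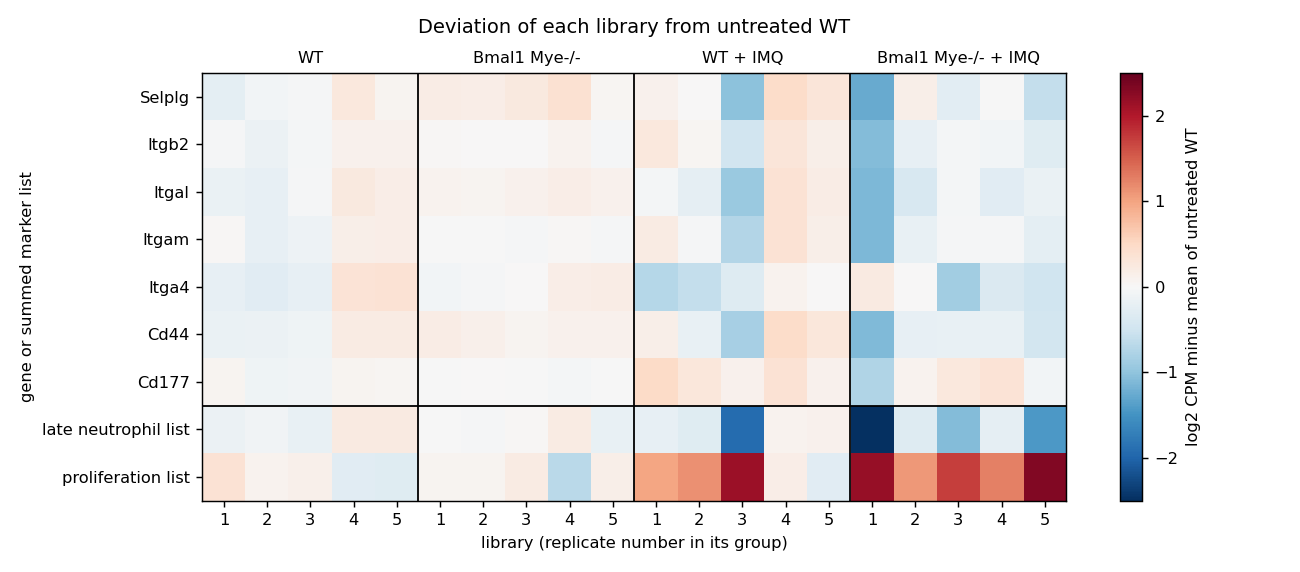
Log2 CPM of the 7 genes, and of 2 summed marker lists below the line, in each of the 20 libraries minus the mean of untreated WT, as colours from blue (lower) to red (higher). WT IMQ replicate 3 and Bmal1 Mye-/- IMQ replicate 1 are blue for most genes and for the late neutrophil list, at 4790 and 3213 CPM, and red for the proliferation list, whereas Itga4 follows another order.

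The spread between mice was wider in the IMQ groups, as a description without a test. The coefficient of variation of the 7 genes had a median of 12.7% in untreated WT, 2.83% in untreated Bmal1 Mye-/-, 25.3% in WT with IMQ and 25.6% in Bmal1 Mye-/- with IMQ. For the 1923 genes above 100 CPM these medians were 8.77%, 6.50%, 20.9% and 22.2%. Itgam was the steadiest in untreated Bmal1 Mye-/-, at a coefficient of 1.33%, and Selplg the most variable with IMQ, at 32.3% in WT and 34.2% in Bmal1 Mye-/-.

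Across the 20 libraries Selplg, Itgb2, Itgal, Itgam and Cd44 varied together, with a Pearson r of log2 CPM between 0.885 and 0.976 over their 10 pairs. The r of Cd177 with these 5 was 0.465 to 0.771, and that of Itga4 with the other 6 was -0.48 to 0.227. These values are descriptions over 20 points that share 4 groups. Within groups, after subtraction of the group means, the ranges were 0.851 to 0.985, 0.647 to 0.879 and -0.46 to 0.0428.

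By the same measure over the 20 libraries, the tested genes most like each member were named. For Selplg these were Ensa (r 0.979), Sh2d3c (0.978) and Grina (0.977), and for Itgb2 they were Myo1f (0.984), Plek (0.983) and Acap1 (0.981). Itgal was most like Zfand3 (0.968), Krt86 (0.957) and Cmip (0.957), and Itgam most like Actn1 (0.981), Tmem127 (0.979) and Rab5b (0.977). For Cd44 these were Nfam1 (0.981), Cmip (0.980) and Mcemp1 (0.978), so that Cmip was named for 2 members. Cd177 was most like Mettl9 (0.942), Prdx5 (0.939) and Cyfip2 (0.936). For Itga4 the closest was Cerkl (0.923), the gene that overlaps it on the opposite strand and that averaged 2.88 CPM, followed by Mettl7a1 (0.871) and Nek7 (0.860).

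Ratios of read counts within a library, which need no scaling between libraries, compared the alpha chains with one another. In Bmal1 Mye-/- the Itgal to Itgam ratio was 0.286, 0.283, 0.291, 0.294 and 0.295 in the untreated replicates 1 to 5 and 0.265, 0.231, 0.264, 0.226 and 0.282 with IMQ. The groups did not overlap, and the ratio was lower with IMQ by a mean log2 difference of -0.20. The exact two-sided permutation test gave p = 0.00794, the smallest that 5 against 5 allows, and 0.0635 after adjustment over the 8 tests planned for the pairs that have counts, or 0.0476 over the 12 tests that include the added ones. In WT the ratio was 0.234 to 0.287 untreated and 0.222 to 0.274 with IMQ, which overlapped (log2 difference -0.12, exact permutation p = 0.175, adjusted 0.466). In untreated mice it was higher in Bmal1 Mye-/- than in WT by 0.12 on the log2 scale (exact permutation p = 0.0397, adjusted 0.159), and under IMQ by 0.04 (exact permutation p = 0.730, adjusted 0.834).

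The Itga4 to Itgam ratio spread far more under IMQ, from 0.0190 to 0.0863 in Bmal1 Mye-/- and from 0.0180 to 0.0453 in WT, than in untreated mice, where it was 0.0329 to 0.0394 and 0.0290 to 0.0389. Its highest value in each IMQ group was that of the low library. None of its 4 comparisons had an exact permutation p below 0.278. The planned Cd177 to Ly6g ratio was not run, for lack of counts of Ly6g, and Itgam was put in its place after the files had been seen. In Bmal1 Mye-/- the Cd177 to Itgam ratio was 1.34, 1.36, 1.35, 1.27 and 1.37 in untreated mice and 1.73, 1.63, 1.66, 1.76 and 1.52 with IMQ. All 5 IMQ values lay above all 5 untreated ones, by a mean log2 difference of 0.31 (exact permutation p = 0.00794, adjusted 0.0476 over 12 tests with the added ones). With the mice paired by replicate number, the exact sign-flip test of 5 pairs cannot pass the threshold, since its smallest p is 0.0625. In WT it was 1.39, 1.43, 1.39, 1.27 and 1.24 untreated and 1.63, 1.67, 2.40, 1.35 and 1.32 with IMQ, which overlapped (log2 difference 0.28, exact permutation p = 0.0873, adjusted 0.262). Without WT IMQ replicate 3 this difference was 0.15. The difference between the genotypes in these responses was not tested.

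Because Cd177, Itgal and Itgam lie on the chromosome of Arntl, the calls for genotype around them were counted. In untreated mice 26 of the 29 called genes lay on this chromosome, between -73.7 and 0.137 Mb from the start of Arntl, and under IMQ 27 of 41 did, between -73.7 and 14.5 Mb. Itgal lies at 14.1 Mb, Itgam at 14.9 Mb and Cd177 at -88.4 Mb. Within 1 Mb of Itgal and Itgam 102 genes were tested, of which 0 were called in untreated mice and 2 under IMQ, Bcl7c (log2 fold change 1.02) and Mir762 (1.81), which overlap each other and lie between Itgal and Itgam. Both were named after their values were seen. Within 1 Mb of Cd177 50 genes were tested and 0 were called in either comparison. Calls of this kind near Arntl cannot be told apart from differences in DNA between the colonies.

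**Figure D4:**
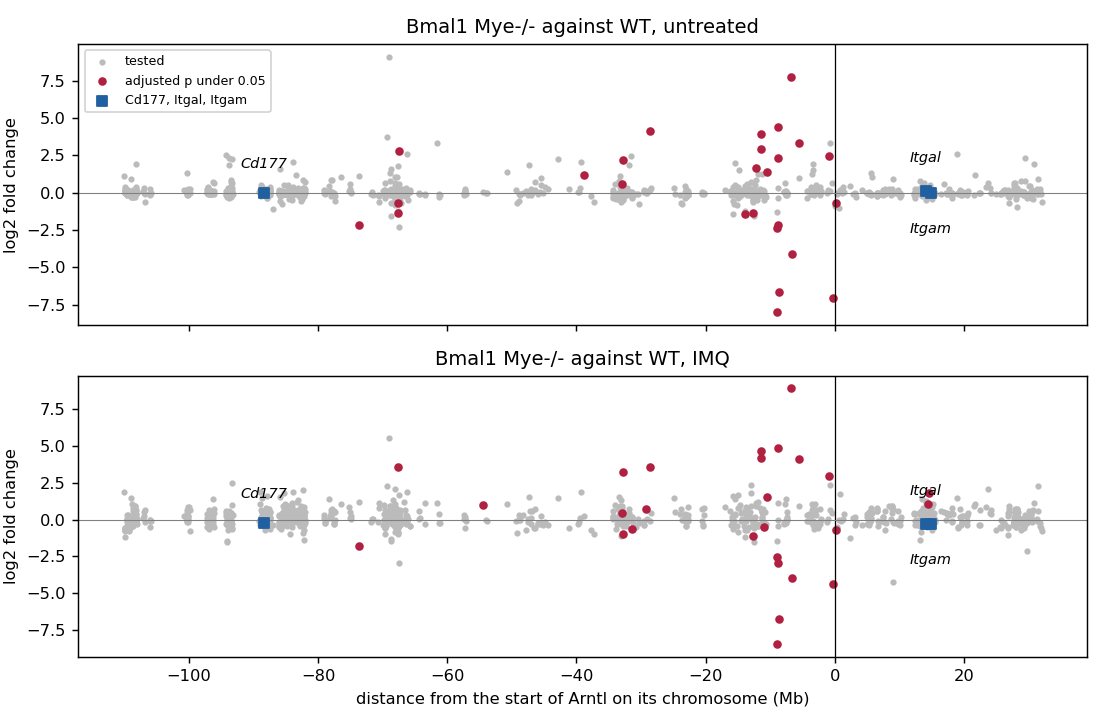
Log2 fold change of Bmal1 Mye-/- against WT for the tested genes of the chromosome of Arntl, by distance from its start in Mb (x axis), untreated (upper panel) and with IMQ (lower panel), with called genes in red and Cd177, Itgal and Itgam as blue squares. The 26 and 27 called genes lie mostly to the left of Arntl, and the 3 squares lie near 0.

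Genes that work with these 8 were taken from 7 lists of 91 genes, of which 88 were tested. With IMQ in WT, 1 of the 88 passed, as higher (1.14%, against 2.34% of all genes that were called higher and 3.95% called in either direction). With IMQ in Bmal1 Mye-/-, 19 passed (21.6%, against 23.5% of all genes), 12 lower and 7 higher, where 9.04% of all genes were called lower and 14.4% higher. The median log2 fold change of the 88 was 0.01 in WT and -0.12 in Bmal1 Mye-/-. For genotype, 0 of 88 passed in untreated mice (0.207% of all genes) and 0 under IMQ (0.292%), with 2 and 22 at an unadjusted p under 0.05, and for the interaction 0 passed and 0 had an unadjusted p under 0.05. The count of 19 fell to 8 without untreated Bmal1 Mye-/- replicate 4 and to between 11 and 12 without untreated replicate 5 or IMQ replicates 3 or 5 of that genotype. It was 28 without the 2 low libraries. Of the 18 genes named for Bmal1 Mye-/- by the rule, at most 4 called genes per list by size of change, 7 kept their call without any single library, namely St3gal6, Itgax, Itga10, Cd47, Ly6d, Cd14 and Spn.

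Among the 13 selectins and enzymes that build selectin ligands, 3 were lower and 1 higher with IMQ in Bmal1 Mye-/-. St3gal6, a sialyltransferase that caps selectin ligands, stood at 28.5 to 54.1 CPM untreated and at 5.33 to 29.7 CPM with IMQ in that genotype, and its log2 fold change was -1.18 (SE 0.32, adjusted p = 0.0171). Fut4, a fucosyltransferase of the same pathway, changed by -0.65 (SE 0.18, adjusted p = 0.0195), and B4galt1, a galactosyltransferase, by 0.25 (SE 0.09, adjusted p = 0.0489). Sele, which encodes the endothelial E-selectin and averaged 0.83 CPM, changed by -1.11 (SE 0.33, adjusted p = 0.0231). The last 3 calls were lost without some single libraries, with an adjusted p of up to 0.0605 for Fut4, 0.0603 for Sele (both without untreated Bmal1 Mye-/- replicate 4) and 0.120 for B4galt1 (without replicate 1 of that group). In WT no gene of this list passed, and B4galt1, among its most abundant genes, was at 0.16.

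Of 16 other integrin subunits tested, 3 were lower and 2 higher with IMQ in Bmal1 Mye-/-. Itgax, the CD11c chain that also pairs with CD18, fell from 20.7 to 34.6 CPM in the untreated replicates to 2.79 to 10.2 CPM with IMQ, without overlap, at a log2 fold change of -2.02 (SE 0.42, adjusted p = 0.00651). It was at -1.36 in WT (adjusted p = 0.0631). Itgb3, the beta 3 chain, changed by -0.61 (SE 0.20, adjusted p = 0.0385) and Itga10 by -0.86 (SE 0.22, adjusted p = 0.0131) at about 1.02 CPM. Itga1 was called higher at 2.00 (SE 0.69, adjusted p = 0.0436), but it was at 35.8 CPM in IMQ replicate 1 and at 1.38 to 7.45 CPM in the other 4, and it was at 0.46 (adjusted p = 0.519) without that library. The call of Itgb3 was lost without 15 of the 20 single libraries, at an adjusted p of up to 0.101 without the same one. Itgb1, the beta 1 chain with which the alpha 4 chain pairs, was higher by 0.58 (SE 0.17, adjusted p = 0.0227) and was the fifth by size of change in its list, named here for that pairing. In WT none of the list passed. Itgb2l, a close relative of Itgb2 that may share reads with it, was at 0.22 and Itgb3 at -0.20.

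Among 18 genes that activate integrins or link them to the cytoskeleton, 3 were lower with IMQ in Bmal1 Mye-/-. Fyb, an adaptor in the inside-out activation of integrins, was at -0.75 (SE 0.23, adjusted p = 0.0278), Cyth1, which binds the CD18 tail, at -0.73 (SE 0.23, adjusted p = 0.0325), and Syk, the kinase downstream of engaged integrins, at -0.68 (SE 0.22, adjusted p = 0.0371). Each of these calls was lost without some single libraries (13 of 20 for Syk), with an adjusted p of up to 0.0755 for Fyb (IMQ replicate 5), 0.0923 for Cyth1 (untreated replicate 5) and 0.0987 for Syk (IMQ replicate 1), all of Bmal1 Mye-/-. The most abundant of the list, the talin gene Tln1 and the paxillin gene Pxn, were at 0.26 and -0.02 in WT, where no gene of the list passed.

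Among 13 integrin ligands and junctional proteins, F11r (JAM-A, a ligand of LFA-1) was the only gene of all 7 lists called with IMQ in both genotypes. It was at 0.222 to 1.42 CPM in untreated WT and at 4.78, 3.57, 32.1, 1.97 and 0.576 CPM with IMQ, at a log2 fold change of 3.71 (SE 0.81, adjusted p = 0.0213). Without WT IMQ replicate 3, its highest library, it was at 2.04 (adjusted p = 0.0669), and the call was also lost without 4 other single libraries (adjusted p up to 0.0673 without untreated WT replicate 3). In Bmal1 Mye-/- it was at 0.505 to 1.56 CPM untreated and at 2.00 to 7.82 CPM with IMQ (2.44, SE 0.76, adjusted p = 0.0301). Amica1, also known as Jaml, a junctional adhesion molecule of neutrophils, fell in Bmal1 Mye-/- from 287 to 402 CPM to 11.3 to 155 CPM (-2.23, SE 0.67, adjusted p = 0.0248) and was at -1.13 in WT (adjusted p = 0.318). Sirpa was lower there by -0.65 (SE 0.20, adjusted p = 0.0284) and its ligand gene Cd47 higher by 0.41 (SE 0.11, adjusted p = 0.0168), whereas in WT they were at -0.08 and at 0.39 (adjusted p = 0.852 and 0.0561). In Bmal1 Mye-/- the adjusted p reached 0.0684 for F11r without untreated replicate 4, 0.0591 for Amica1 without IMQ replicate 1 and 0.0785 for Sirpa without IMQ replicate 5.

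Of 8 Ly6 family genes tested, to which Ly6g belongs, Ly6d was lower with IMQ in Bmal1 Mye-/- (-1.89, SE 0.50, adjusted p = 0.0150) at about 2.27 CPM, and no other passed. In untreated Bmal1 Mye-/- Ly6d was highest in replicates 1 and 2, at 6.56 and 6.12 CPM. The summed B lineage markers were also highest in these, at 24.0 and 19.8 CPM, and a link between them was not tested. In WT, where none passed, Ly6d was at -1.59 (adjusted p = 0.0712), Ly6c2 was at 0.48 and Ly6e at 0.70, and Ly6e varied from 195 to 861 CPM between IMQ replicates. Of 15 other surface markers 2 were higher in Bmal1 Mye-/- with IMQ. Cd14, the endotoxin co-receptor, rose from 40.6 to 87.1 CPM to 89.2 to 300 CPM (log2 fold change 1.75, SE 0.46, adjusted p = 0.0152), and Spn, which encodes the sialomucin CD43, rose from 149 to 193 CPM to 215 to 390 CPM (0.75, SE 0.20, adjusted p = 0.0138). Neither gene overlapped between the 2 groups. In WT they were fitted at 1.60 (adjusted p = 0.0553) and 0.67 (adjusted p = 0.0567), and the most abundant markers there were Ptprc at -0.07 and Cd24a at 0.15.

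Of the 5 sheddases, proteases that cut surface proteins, none passed in any comparison. The most abundant, Mmp9 and Adam8, were at -0.76 (adjusted p = 0.0766) and -0.88 (adjusted p = 0.0531) with IMQ in Bmal1 Mye-/-. For genotype, the genes with the highest CPM in each list were fitted between -0.20 (Itgb3) and 0.21 (Adam8) in untreated mice and between -0.73 (Mmp9) and 0.03 (Ly6e) under IMQ, and none passed.

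**Figure D5:**
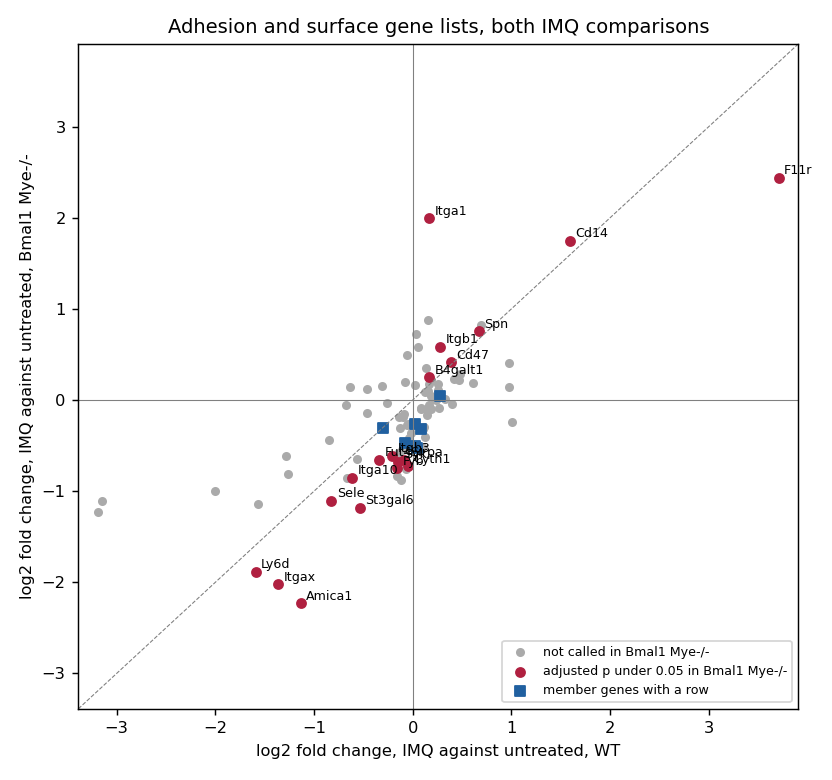
Log2 fold change with IMQ in WT (x axis) against that in Bmal1 Mye-/- (y axis) for the 88 list genes (circles, red where called in Bmal1 Mye-/-) and the 7 adhesion and marker genes with counts (blue squares), with the line of equality dashed. Itgax, Amica1 and Ly6d lie lowest among the called genes and F11r highest, whereas the squares lie between -0.53 and 0.28 on both axes.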

How the data were processed

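RNA of neutrophils enriched from the bone marrow of single mice was made into poly(A) libraries, 1 per mouse. The deposited files hold raw read counts per gene, made by the authors and neither normalised nor pooled. The submitters' processing notes name bcl2fastq, STAR 2.7.8a, HTSeq 2.0.1 and mm10, whereas the published methods name TopHat as the aligner. The annotation and the strand setting are not given in the sources used here. A joined table of the same counts was not used. The 5 summary lines of the counter held 58.1% to 62.6% of the reads accounted for and stayed out of all totals. The libraries held from 30782166 to 92613500 reads on genes (median 66094896). The sequencing run of each library is not given in the sources used here, so no batch was examined.

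Genes with low counts were removed by edgeR's filterByExpr (14030 of 24421 kept), libraries were scaled by TMM, and 1 quasi-likelihood fit (edgeR 4.0.16, limma 3.58.1, R 4.3.3) over the 4 groups gave the 5 comparisons, with Benjamini-Hochberg adjustment over all tested genes and a threshold of 0.05. The fits were tested on simulated counts beforehand. RPKM used merged exon lengths from the GENCODE annotation. Ratios of counts were compared by exact two-sided permutation tests (SciPy 1.17.1). Alternatives were DESeq2 1.42.0, other scalings, filters of none or of 10 counts in every library, limma on log2(CPM + 0.1), a replicate block, fits of only the groups compared and the omission of each library. Correlations and likeness used log2 CPM with a prior count of 2.

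The 8 genes, the 7 lists and the marker lists were chosen with earlier results of these data known. Of each list, the text names up to 4 genes with the largest change among those past the threshold, or, where none passed, the 2 of highest mean CPM (the values of 1 gene are not reported here), and for each of the 7 genes with counts the 3 genes of highest Pearson r. Each library is a mouse, so p-values measure the spread between these mice. No pair of libraries of a group agreed within sampling noise. Same-numbered libraries deviated together in all 5 pairs of the comparison of IMQ with untreated Bmal1 Mye-/- mice (r of 0.128 to 0.426) and in 4 of 5 pairs for WT (0.0728 to 0.384), but not between genotypes (-0.50 to 0.343). The labels do not say what a number stands for.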

Additional observations from a re-analysis of the deposited data

Results flagged for a closer look

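In 3 of the 40 sets of 5 libraries examined for the 7 genes and the ratios, 1 library lay farther from the others than Dixon's 95% limit of 0.71 for the gap divided by the range. Chance gives about 1 in 20, or 2 of 40. Itgam in Bmal1 Mye-/- IMQ replicate 1 stood at 1521 CPM, below the other 4 of its group, with a gap of 0.752 of the range. Cd177 in untreated Bmal1 Mye-/- replicate 4 stood at 4258 CPM, where the other 4 were at 4385 to 4428 CPM, also with a gap of 0.752. The log2 ratio of Cd177 to Itgam was lowest in the same untreated library, at 0.35, with a gap of 0.752.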

How the results depend on the processing

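Without the 2 low libraries, 1 of the 7 genes passed with IMQ in WT, 1 with IMQ in Bmal1 Mye-/- and 2 between genotypes under IMQ, and the calls among list genes were 9 in WT and 8 between genotypes. Of the 7 genes, 1 (Cd44) passed with IMQ in Bmal1 Mye-/- with DESeq2, where 31.1% of all genes did. The same 1 passed with library size alone, against 22.7% of all genes, and with limma, against 20.7%. The counts with libraries left out have no share over all genes beside them here. The 1 list gene called in WT became 12 with DESeq2, 3 with library size alone, 4 with limma and 0 with only the 2 groups compared, and DESeq2 called 1 between genotypes under IMQ. Leaving out each library gave 0 to 14 list genes in WT, 8 to 26 in Bmal1 Mye-/- and 0 to 17 between genotypes under IMQ, and 0 to 3 and 0 to 2 of the 7 genes in the last 2 comparisons. Over all genes, DESeq2 called 1480, 4190 and 311 where edgeR called 554, 3292 and 41 with IMQ in WT, with IMQ in Bmal1 Mye-/- and between genotypes under IMQ. The replicate block called 0 of the 7 genes in all 5 comparisons and 19 list genes in Bmal1 Mye-/-, and over all genes it called 190 in WT and 3114 in Bmal1 Mye-/-. The causes were not tested.

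Signs turned only among values that did not pass. With IMQ in WT, library size alone gave -0.0563 for Selplg, -0.0630 for Itgam and -0.0626 for Cd44, limma gave -0.0952, -0.0775 and -0.0900 for these and -0.00338 for Itgb2, and the filter of 10 counts gave -0.00322 for Itgam and -0.000267 for Cd44. Without the 2 low libraries Itgal was at 0.0634, Pxn at 0.115, Ptprc at 0.0829, Adam8 at 0.0827 and Mmp9 at 0.133. Between genotypes, Itgam in untreated mice was at 0.000406 with limma, and Itga4 under IMQ was at -0.00132 with DESeq2 and with RLE factors and at -0.118 without the 2 low libraries. The difference in response of Itga4 was 0.207 with library size alone, 0.00991 with no filter and 0.131 with limma. With single libraries left out, the WT values spanned -0.0941 to 0.214 for Selplg, -0.0796 to 0.163 for Itgam, -0.225 to 0.0717 for Itgal, -0.111 to 0.180 for Cd44, -0.122 to 0.122 for Pxn, -0.190 to 0.0906 for Ptprc, -0.206 to 0.140 for Mmp9 and -0.248 to 0.0895 for Adam8. The change of Cd177 in Bmal1 Mye-/- spanned -0.0291 to 0.197. Between untreated genotypes Itgam spanned -0.0703 to 0.00621, Itgb2 -0.0234 to 0.0317 and Itga4 -0.0435 to 0.108. Itga4 spanned -0.122 to 0.138 under IMQ and -0.144 to 0.126 for the difference in response.

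For the ratio of Itga4 to Itgam under IMQ the log2 difference of medians was -0.00666, against 0.31 for that of means, and leaving out single libraries gave -0.0163 to 0.53, with -0.37 to 0.17 for IMQ in Bmal1 Mye-/-. For Itgal to Itgam under IMQ it gave -0.00134 to 0.0785. The log2 ratio of Cd177 to Itgam was higher with IMQ in Bmal1 Mye-/- by 0.29 to 0.34 with single libraries left out, which leaves 5 against 4 and no adjusted p below 0.0952. It was higher by 0.29 by medians (adjusted p = 0.190, exact permutation test) and by 0.31 in the replicate block (adjusted p = 0.25, exact sign-flip test), neither of which passed. Between genotypes it spanned -0.0339 to 0.0195 untreated and -0.0570 to 0.16 under IMQ. The Cd177 to Ly6g ratio was not run for lack of counts of Ly6g.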
